A study of Homo sapiens with 4 samples.

Results

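The genes described here are 39 members of the cholesterol and fatty acid synthesis program, enzymes that are for the most part known targets of the sterol regulatory element binding proteins (SREBPs), together with regulators of SREBP and genes of sterol transport. They were picked by gene symbol from a list whose rule uses no measured value, although earlier results of these data were known when it was drawn up, and all 39 were among the 25192 genes of the deposited tables. By role, 10 were grouped between acetyl-CoA and squalene, among them AACS and GGPS1, which act beside the direct route. Another 9 act between squalene and cholesterol, and 5 regulate SREBPs. Of the rest, 6 carry, export or store sterol or control its uptake, and 9 make or modify fatty acids or pass them to glycerolipid. RNA came from A549, an established human lung adenocarcinoma cell line that carries no change made by the study other than the virus. Cells received either a control empty retrovirus (EV) that expresses GFP alone or a retrovirus that expresses V5-tagged FCN3, a secreted lectin of the complement system, together with GFP, and RNA was taken 48 h after infection. There were 2 libraries for each virus, numbered 1 and 2 in both groups, and the control virus carried no other secreted protein in place of FCN3. The labels do not say whether the numbered libraries came from separate cultures or infections, so p-values measure only the spread between these libraries, which may be technical.

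Cells sense cholesterol in the membrane of the endoplasmic reticulum (ER). When sterol is low, the escort protein SCAP carries SREBP to the Golgi, where proteases encoded by MBTPS1 and MBTPS2 release its transcription factor part, and the INSIG proteins hold SCAP back when sterol is plentiful. The SREBP encoded by SREBF2 is best known for sterol synthesis genes and the one encoded by SREBF1 for fatty acid genes, and on promoters both work with NF-Y, which binds CCAAT. Cells loaded with sterol instead use liver X receptors, which raise export pumps such as ABCA1 and ABCG1 and the ubiquitin ligase MYLIP. A549 is widely used as a model of alveolar epithelium, the tissue whose type 2 cells make surfactant lipid.

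Depth and identity of the libraries were checked first. Expected counts summed to 35733735 and 16353554 in EV replicates 1 and 2 and to 35031565 and 20136068 in FCN3 replicates 1 and 2. The floor of 3 counts lay between 0.0823 and 0.179 CPM, that is counts scaled to the normalized size of the library. FCN3 itself had 1 and 0 counts with EV and 722388 and 448352 with the FCN3 virus, and the ER chaperone gene HSPA5 had a mean of 749 CPM with EV and 6842 CPM with FCN3. The 5 epithelial markers, mostly the keratins KRT8 and KRT18, summed to 2933 and 3725 CPM with EV and 3605 and 4513 CPM with FCN3, and 6 NRF2 genes known to be high in A549 to between 7718 and 8920 CPM. The less abundant epithelial markers did not all follow the sum. EPCAM read 2.25 and 3.11 CPM with EV and 1.00 and 1.46 CPM with FCN3, CDH1 read 15.4 and 24.4 CPM with EV and 9.23 and 18.4 CPM with FCN3, and KRT19 read 23.1 and 37.5 CPM with EV and 67.3 and 74.4 CPM with FCN3. In edgeR with the replicate number as a term EPCAM (FDR 1.6e-04) and CDH1 (FDR 3.2e-06) were lower and KRT19 (FDR 6.2e-20) higher, while DESeq2 with the same term called neither EPCAM nor CDH1. Their part in the results was not tested. Of the alveolar type 2 markers, 5 of 7, the surfactant genes SFTPC, SFTPB, SFTPA1 and SFTPA2 and the factor NKX2-1, were at or under the floor everywhere. The summed type 2 list read 0.878 and 0.777 CPM with EV and 2.62 and 3.67 CPM with FCN3, a difference carried by LAMP3, at 0.329 and 0.119 CPM with EV and 2.39 and 3.07 CPM with FCN3. The fibroblast list had 3 of 6 genes at or under the floor and followed the replicate number, with 11.2 and 27.2 CPM in EV replicates 1 and 2 and 9.73 and 28.0 CPM in FCN3 replicates 1 and 2, nearly all of it COL1A1. The adipocyte list, the other lipid-making cell type considered, had 3 of 4 genes at 0, ADIPOQ, FABP4 and LEP, and sums of at most 0.251 CPM. Endothelial markers summed to at most 0.265 CPM and leukocyte markers to at most 1.59 CPM.

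Promoter sequences of members with different responses are shown here so that the letters can be read beside the expression values that follow. For 34 of the 39 genes a promoter window was found in the RefSeq table made on GRCh38.p14. Each window ran from 250 bases before to 50 bases after the start. Only the stretches shown here were placed on GRCh37, by exact match. There was no window for ACAT2, FDFT1, SQLE, ABCG1 and FASN. Capitals mark CCAAT, which reads ATTGG when it lies on the other strand, and in SREBF2 also the sterol regulatory element letters TCACCCCAC. The first 3 genes are the members that passed the test without regard to the replicate number, SREBF2 encodes the SREBP of the sterol genes, and EBP is an enzyme of the same pathway that did not pass the test for a rise. The stretches lie at chr5:43313610-43313679 (minus strand, 5 bases in an annotated HMGCS1 exon), chr4:166248626-166248760 (plus strand, upstream of MSMO1), chr5:110848350-110848403 (minus strand, upstream of STARD4), chr22:42228967-42229016 (plus strand, within an exon of the antisense gene SREBF2-AS1) and chrX:48380118-48380177 (plus strand, upstream of EBP).
HMGCS1: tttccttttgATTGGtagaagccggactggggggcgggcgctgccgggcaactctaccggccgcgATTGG
MSMO1: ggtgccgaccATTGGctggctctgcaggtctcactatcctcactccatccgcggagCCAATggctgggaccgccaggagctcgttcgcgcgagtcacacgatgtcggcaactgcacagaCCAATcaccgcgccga
STARD4: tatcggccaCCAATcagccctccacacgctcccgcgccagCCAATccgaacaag
SREBF2: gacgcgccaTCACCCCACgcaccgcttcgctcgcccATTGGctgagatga
EBP: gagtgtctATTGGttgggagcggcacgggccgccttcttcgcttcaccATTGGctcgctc

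CCAAT on either strand was present in 19 of the 34 windows, against 35.7% of all 27305 windows of the table. Windows with 2 or more CCAAT sites numbered 13 of 34, against 11.3% of all. By role, CCAAT was found in 7 of 8 windows of the squalene to cholesterol enzymes, 4 of 8 of the mevalonate to squalene enzymes, 2 of 5 of the regulators, 3 of 5 of the transport genes and 3 of 8 of the fatty acid genes. Members with a negative log2 difference were split. CCAAT was present in EBP, with 3 sites, and in ACLY and MYLIP, with 2 sites each. It was absent from the windows of PMVK, SCAP and NPC1. The sterol regulatory element, searched as TCACNCCAC, was found only in SREBF2 among the 34, against 1.15% of all windows. Only these exact letters were counted, so an element spelled otherwise or lying outside the window would be missed. The palindromic E-box CACGTG was found in LSS, SCAP, INSIG1 and ABCA1, against 7.44% of all windows. The ER stress element, a longer motif that starts with the CCAAT letters, was in 0 of the 34 and in 0.081% of all windows. All motifs were searched on both strands, and the matches describe letters in a window of fixed size, not bound sites.

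Expression was compared by edgeR's quasi-likelihood test with Benjamini-Hochberg adjustment over all 14099 genes that passed the filter on low counts, at an adjusted p (FDR) of 0.01. Without regard to the replicate number, 3 members rose and 0 fell, HMGCS1, MSMO1 and STARD4, against 0.738% of all tested genes called higher and 0.227% called lower. At an unadjusted p under 0.05 this fit had 24 members higher and 2 lower, against 13.6% and 11.6% of all tested genes. DESeq2, also without regard to the replicate number, called 18 higher and 0 lower, against 4.43% and 3.43% of the genes it tested. Beside HMGCS1, MSMO1 and STARD4, the 18 were MVD, IDI1, FDPS, FDFT1, AACS, SQLE, LSS, CYP51A1, NSDHL, HSD17B7, DHCR7, INSIG1, ABCA1, SCD and LPIN1. Given a term for the replicate number, DESeq2 called 23 higher and 2 lower, against 8.1% and 8.08%. Blocked on the replicate number, edgeR called 28 members higher and 3 lower, against 19.1% and 17.1% of all tested genes. In what follows the fit without the block is the reference, and the value with the block is given beside it because the comparison was to be paired by replicate number. ABCG1, the remaining member, failed the filter. Because RNA was taken from the whole culture, a change in the number of cells expressing a gene and a change in RNA per cell cannot be told apart.

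Across the 38 tested members the median log2 fold change was 0.53, against 0.02 over all tested genes, and 32 of the 38 read higher with FCN3. For 27 members the lower FCN3 library exceeded the higher EV library, for 5 members the order was the opposite, and the groups overlapped for 6. Over all tested genes these orders were found in 28% and 26.5%. The median was 0.83 for the enzymes from squalene to cholesterol, 0.62 for those from acetyl-CoA to squalene, 0.47 for the regulators, 0.31 for the fatty acid genes and 0.03 for the transport genes. With 2 libraries a group, the smallest two-sided p of an exact permutation test on a single gene is 0.333, and every p-value given is from a model fitted over all genes. The block fit removes the difference between replicate numbers first and leaves little spread for any single gene. Its FDRs therefore rest largely on variability shared across genes, and their small size does not measure the replication of a single gene.

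**Figure D1:**
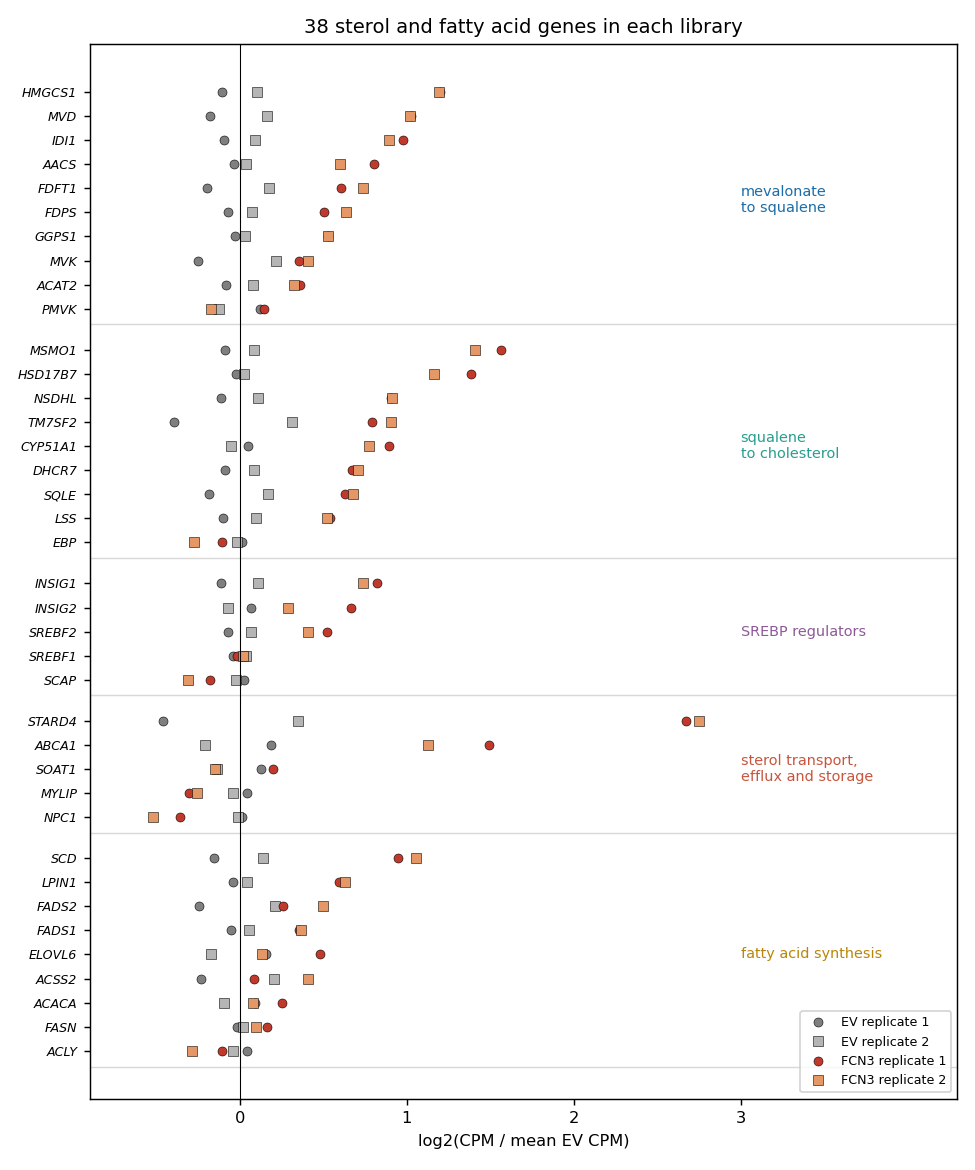
Level of each of the 38 tested genes in each library, as log2 of its TMM-normalized CPM over the mean EV CPM of that gene (x axis), by gene and role (y axis), with points for the 4 libraries. Red and orange points of the FCN3 libraries sit to the right of the grey EV points for most sterol enzymes and for STARD4 and ABCA1, and on top of them or to the left for SREBF1, SCAP, NPC1 and ACLY.

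The enzymes grouped on the way from acetyl-CoA through mevalonate to squalene, with AACS and GGPS1 beside it, were higher as a group except for PMVK. The largest difference of this arm was in HMGCS1, which joins acetyl-CoA to acetoacetyl-CoA and so makes the precursor of mevalonate (chromosome 5, 43287572 to 43313614, minus strand of GRCh37). HMGCS1 read 207 and 239 CPM in EV replicates 1 and 2 and 511 and 509 CPM in FCN3 replicates 1 and 2. The FCN3 libraries were close to each other and far above both EV libraries. HMGCS1 rose 2.29-fold, a log2 fold change of 1.20 ± 0.10 (SE), with an FDR of 0.0060 in edgeR without the block and 4.3e-26 with it. This call was lost when FCN3 replicate 1 was left out, at a log2 fold change of 1.19 and an FDR of 0.010.

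Next in size were MVD, which makes isopentenyl diphosphate by decarboxylation, and IDI1, which converts it to dimethylallyl diphosphate. MVD read 22.4 and 28.5 CPM with EV and 51.9 and 51.6 CPM with FCN3, a log2 difference of 1.03 ± 0.14 with an edgeR FDR of 0.018 without and 5.5e-17 with the block. IDI1 read 54.8 and 62.1 CPM with EV and 115 and 109 CPM with FCN3, a log2 difference of 0.94 ± 0.10 with an edgeR FDR of 0.012 and, with the block, 9.2e-19. Neither gene overlapped between the groups, and both passed the edgeR test with the block and not without it. DESeq2 without the block called both, at FDRs of 4.7e-07 in MVD and 2.2e-09 in IDI1.

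FDPS, which makes farnesyl diphosphate, had the highest level per length of this arm and the second highest of the list. TPM is a transcript abundance that is divided by gene length and so allows genes to be compared. It adds up to the same total in each library, and FCN3 itself took a mean of 43174 TPM with the FCN3 virus. That share lowers the TPM of other genes there, and so their ratios to EV. FDPS had a mean of 196 TPM with EV and 270 TPM with FCN3. Its CPM were 120 and 133 with EV and 180 and 197 with FCN3, a log2 difference of 0.57 ± 0.10 (edgeR FDR 0.031 without and 2.3e-13 with the block). The other members of the arm that rose in the block fit were AACS, which activates acetoacetate for lipid synthesis, the squalene synthase gene FDFT1, the geranylgeranyl diphosphate synthase gene GGPS1, the mevalonate kinase gene MVK and the acetoacetyl-CoA thiolase gene ACAT2, at log2 differences from 0.34 in ACAT2 to 0.71 in AACS. PMVK, the next kinase after MVK, had a log2 difference of -0.01 ± 0.15, and its libraries overlapped, with 40.1 and 33.8 CPM in EV and 40.8 and 32.7 CPM in FCN3. The calls of ACAT2 and MVK were lost in DESeq2 with the block, at FDRs of 0.016 and 0.079. In both groups PMVK was higher in replicate 1 than in replicate 2. ACAT2, MVK and GGPS1 overlap TCP1 and SOD2, MMAB and ARID4B on the opposite strand, and the strand setting of the counting is not stated, so their values are uncertain.

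The enzymes that turn squalene into cholesterol were higher except for EBP. MSMO1, which removes methyl groups from the sterol ring (chromosome 4, 166248819 to 166264316, plus strand), read 33.4 and 37.6 CPM with EV and 105 and 94.3 CPM with FCN3. MSMO1 rose 2.81-fold, a log2 fold change of 1.49 ± 0.11, with an edgeR FDR of 0.0043 without and 1.5e-25 with the block. Its call held without any 1 of the libraries.

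HSD17B7, a keto reductase of the same demethylation steps, read 12.7 and 13.1 CPM with EV and 33.8 and 28.9 CPM with FCN3. Its log2 difference was 1.29 ± 0.13, with an edgeR FDR of 0.011 without and 1.1e-17 with the block, so that it lay just outside the threshold of the former. The near-identical copy HSD17B7P2 read 0.576 and 0.777 CPM with EV and 2.06 and 2.71 CPM with FCN3, and because the counting divides shared reads between the pair, the share of each is uncertain. TM7SF2, a sterol reductase, had EV libraries that stood apart, with 5.38 and 8.78 CPM in EV against 12.2 and 13.3 CPM in FCN3, and a log2 difference of 0.90 ± 0.25 (edgeR FDR 0.10 without and 2.5e-08 with the block). TM7SF2 shares its strand and part of its span with VPS51, so reads of the overlap are uncertain.

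NSDHL, the dehydrogenase that works with MSMO1, differed by 0.91 ± 0.11 on the log2 scale, CYP51A1, the lanosterol demethylase, by 0.83 ± 0.09, and DHCR7, which makes cholesterol in the last step, by 0.69 ± 0.10. SQLE, the squalene epoxidase and a rate-limiting enzyme of the pathway, differed by 0.66 ± 0.13, and LSS, which closes the ring to lanosterol, by 0.54 ± 0.10. None of these 5 genes overlapped between the groups, and each passed the edgeR test with the block and not without it. Without the block their edgeR FDRs ran from 0.012 in CYP51A1 to 0.047 in SQLE, and DESeq2 called all 5 higher. CYP51A1 overlaps AKAP9 on the opposite strand. EBP, the sterol isomerase, went the other way, with 62.9 and 61.6 CPM in EV and 57.9 and 51.4 CPM in FCN3. Its log2 difference of -0.19 ± 0.10 did not pass the edgeR test without (FDR 0.31) or with the block (FDR 0.013).

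Summed over the 19 enzymes of both arms, TPM was 1061 and 1177 with EV and 1647 and 1665 with FCN3, a ratio of means of 1.48, and the ratio was 1.48 in each arm. In this sum the groups were far apart compared with the spread within each. In DESeq2 without the block 13 of the 19 were called higher, against 4.43% of the genes it tested. The rise was uneven between steps of the pathway: PMVK and EBP read -0.01 and -0.19 on the log2 scale beside neighbours of up to 1.49.

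**Figure D2:**
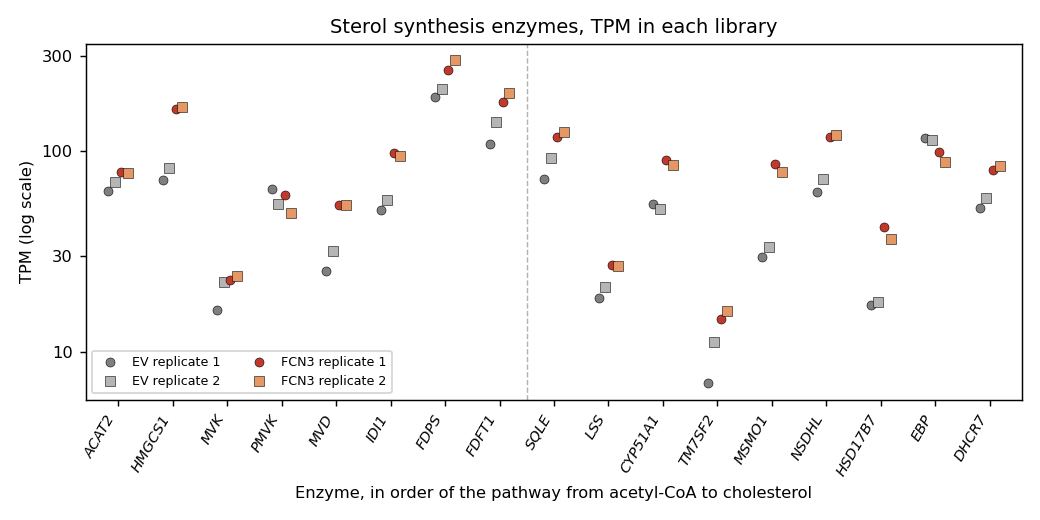
TPM of 17 sterol synthesis enzymes in each library (y axis, log scale), ordered along the pathway (x axis), with a dashed line where squalene is reached. The FCN3 points lie above the EV points from HMGCS1 to DHCR7, except in PMVK, where they mix, and in EBP, where they lie below.

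The regulators of SREBP did not move together. SREBF1 (chromosome 17, 17713713 to 17740316, minus strand) read 74.1 and 78.3 CPM with EV and 75.3 and 77.1 CPM with FCN3. Its FCN3 values lay between its EV values, and its log2 difference was 0.00 ± 0.08, with an edgeR FDR of 1.00 without and 0.99 with the block. The gene counts do not separate the transcripts of SREBF1, and SREBF1 overlaps RAI1 on the opposite strand. SREBF2 (chromosome 22, 42229109 to 42303310, plus strand) read 72.4 and 79.7 CPM with EV and 109 and 101 CPM with FCN3. The SREBF2 groups did not overlap, and its log2 difference of 0.47 ± 0.10 had an edgeR FDR of 0.050 without and 3.8e-09 with the block.

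INSIG1, itself a classic SREBP target that retains SCAP in the ER, read 26.9 and 31.4 CPM with EV and 51.5 and 48.7 CPM with FCN3. Its log2 difference was 0.79 ± 0.12 (edgeR FDR 0.023 without and 3e-13 with the block). INSIG2, its relative with the same role, read 11.3 and 10.3 CPM with EV and 17.1 and 13.2 CPM with FCN3, and differed by 0.49 ± 0.18 (edgeR FDR 0.17 without and 1.1e-04 with the block). SCAP was lower, with 69.4 and 67.1 CPM in EV and 60.2 and 54.9 CPM in FCN3, a log2 difference of -0.24 ± 0.09 that passed the edgeR test with the block (FDR 9.6e-04) and not without it (FDR 0.18). The calls of INSIG2 and SCAP were lost in DESeq2 with the block, at FDRs of 0.091 and 0.062.

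Among the genes that move, export or store sterol, STARD4 had the largest difference of the whole list. STARD4 carries cholesterol between membranes in the cytosol (chromosome 5, 110831731 to 110848288, minus strand), and it read 3.13 and 5.50 CPM with EV and 27.5 and 29.1 CPM with FCN3. These levels lay well over the floor in all 4 libraries. STARD4 rose 6.96-fold, a log2 fold change of 2.80 ± 0.25, with an edgeR FDR of 0.0080 without and 4.3e-26 with the block. Its call was lost in limma on log2(TPM + 1), where the difference was 2.36 with an FDR of 0.013, and on log2(TPM + 0.1), where it was 2.63 with an FDR of 0.014. Its mean level per length went from 3.76 to 22.9 TPM, from place 36 to place 31 of the 39.

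ABCA1, which exports cholesterol to apolipoprotein A-I (chromosome 9, 107543287 to 107690436, minus strand), read 21.1 and 16.01 CPM with EV and 52.1 and 40.5 CPM with FCN3. In each group replicate 1 was the higher library, and the groups did not overlap. Its log2 difference was 1.31 ± 0.19 (edgeR FDR 0.022 without and 1.2e-20 with the block). Other known liver X receptor targets of the list include ABCG1 and MYLIP, and also SREBF1 and SCD, which read 0.00 and 1.00 on the log2 scale. ABCG1, another export pump, had 5 and 6 counts with EV and 8 and 5 counts with FCN3, at most 0.358 CPM, too few to be tested. MYLIP, which marks lipoprotein receptors for degradation, differed by -0.30 ± 0.23 on the log2 scale and passed neither fit, at 2.66 and 2.51 CPM with EV and 2.09 and 2.16 CPM with FCN3.

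NPC1, which lets cholesterol leave the lysosome, was lower, with 115 and 113 CPM in EV and 88.8 and 79.5 CPM in FCN3. Both FCN3 libraries lay below both EV libraries, and the log2 difference of -0.44 ± 0.09 had an edgeR FDR of 0.054 without and 7.7e-09 with the block. SOAT1, which esterifies cholesterol for storage, overlapped between the groups at a log2 difference of 0.03 ± 0.16. The differences of this group thus ran from -0.44 in NPC1 to 2.80 in STARD4 around a median near 0.

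The fatty acid genes had the highest summed level per length of the 5 roles, at 1060 and 1117 TPM with EV and 1196 and 1214 TPM with FCN3, although ACACA, ELOVL6, LPIN1 and ACSS2 lay at place 19 or lower of the 39 with EV. The genes of this role, apart from SCD and LPIN1, had log2 differences of at most 0.39. SCD, the desaturase that makes oleate and palmitoleate (chromosome 10, 102106990 to 102124583, plus strand), read 339 and 416 CPM with EV and 727 and 785 CPM with FCN3. Its log2 difference was 1.00 ± 0.12, with an edgeR FDR of 0.015 without and 1.8e-23 with the block. By level per length SCD went from place 5 to place 3, from a mean of 130 to 243 TPM. LPIN1, a phosphatidate phosphatase that makes diacylglycerol, read 50.6 and 53.8 CPM with EV and 78.6 and 80.7 CPM with FCN3, a log2 difference of 0.61 ± 0.09 (edgeR FDR 0.021 without and 3.7e-12 with the block).

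FADS1 and FADS2, desaturases of polyunsaturated fatty acids that lie next to each other on chromosome 11, were also higher in the block fit. FADS2 read 249 and 340 CPM with EV and 353 and 416 CPM with FCN3, so that EV replicate 2 came close to FCN3 replicate 1, and its log2 difference was 0.39 ± 0.17 (edgeR FDR 0.24 without and 5.3e-09 with the block). FADS1 read 340 and 366 CPM with EV and 451 and 454 CPM with FCN3, a log2 difference of 0.36 ± 0.08 (edgeR FDR 0.063 without and 2.2e-08 with the block). Their annotated spans overlap on opposite strands, and FADS2 also overlaps FEN1 on the same strand, so the split of reads among them is uncertain.

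The genes that supply and elongate the carbon chain differed least. ACLY, which makes cytosolic acetyl-CoA from citrate for both sterols and fatty acids, was the most abundant member with a mean of 435 TPM in EV and 354 TPM in FCN3. ACLY read 1023 and 967 CPM with EV and 924 and 815 CPM with FCN3, and its log2 difference of -0.19 ± 0.10 passed the edgeR test with the block (FDR 7.2e-04) and not without it (FDR 0.30). FASN, the fatty acid synthase, differed by 0.13 ± 0.08 on the log2 scale and ACSS2, which makes acetyl-CoA from acetate, by 0.26 ± 0.20. Neither passed in the block fit, where the FDR was 0.028 for FASN and 0.010 for ACSS2. ACACA, the carboxylase of the committed step, and ELOVL6, which elongates palmitate, differed by 0.17 ± 0.11 and 0.31 ± 0.17 and passed edgeR with the block and not without it, with block FDRs of 0.0062 and 7e-05. Both calls were lost in DESeq2 with the block, at FDRs of 0.13 and 0.038. The libraries of ACACA, ELOVL6 and ACSS2 overlapped between the groups. Summed TPM of the 9 fatty acid genes had a ratio of means of 1.11.

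**Figure D3:**
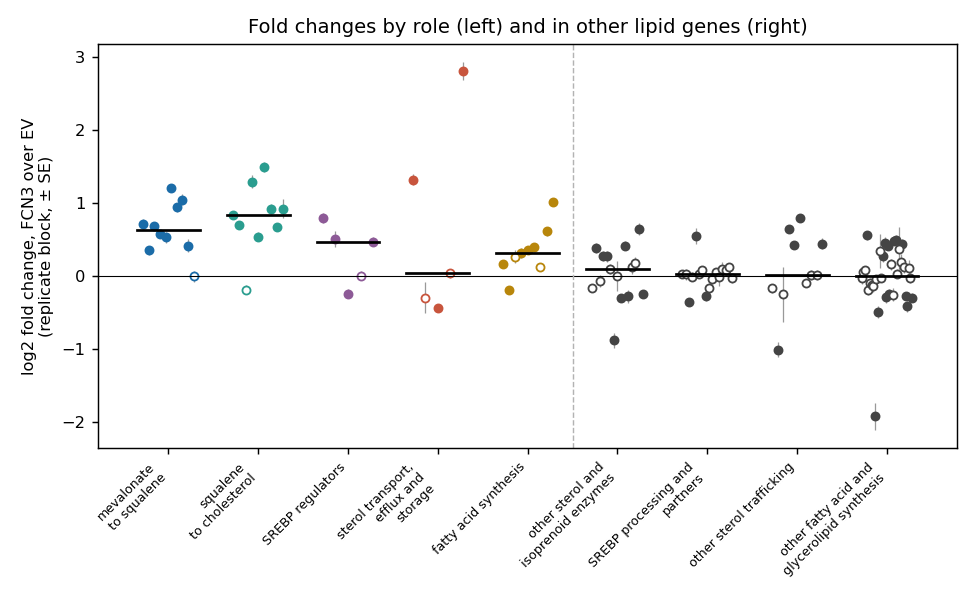
Log2 fold change of each tested gene in the edgeR fit with the replicate block (y axis, ± SE) by role of the member genes (left of the dashed line) and by list of other lipid genes (right). Filled points passed an FDR of 0.01 in that fit, open points did not, and black bars are medians, which lie at 0.63 and 0.83 for the sterol enzymes and near 0 for the lists on the right.

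The 4 libraries were also compared within each replicate number. The difference between replicates 1 and 2 correlated between EV and FCN3 over genes, with Pearson's r of 0.81 over 8309 genes with an average log2 CPM above 4 and 0.79 over the 38 members. These are descriptions over genes that share the same 4 libraries. With the group in the model, edgeR called 5 members higher and 5 lower in replicate 2, against 11.7% and 10.5% of all tested genes. Within both numbers FCN3 was higher for 30 members and lower for 5, and 3 members, PMVK, SREBF1 and SOAT1, had opposite signs. The share of all tested genes with the same sign within both numbers was not counted, so these counts have no background beside them. The log2 ratio was larger within replicate 1 than within replicate 2 for 35 of the 38 members, or 92.1%, against 53.6% of the 14047 tested genes with counts in all libraries. Among genes called higher with the block, the same held for 26 of 28 members and for 54.1% of the 2671 such genes with counts in all libraries. Over the 38 members the exceptions were ABCA1, ACACA and MYLIP, of which MYLIP was not called higher with the block.

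The members' median log2 ratio was 0.60 within replicate 1 and 0.46 within replicate 2, where all tested genes had medians of 0.02 and 0.00. STARD4 had ratios of 3.13 and 2.40, MSMO1 of 1.65 and 1.33, HMGCS1 of 1.305 and 1.09, MVD of 1.21 and 0.86 and TM7SF2 of 1.19 and 0.60. ABCA1 was nearly equal, at 1.31 and 1.34. Libraries numbered 1 held more counts than those numbered 2, and the part of depth in this difference was not tested. Whether the response differed between the numbers cannot be tested with 1 library for each virus and number.

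**Figure D4:**
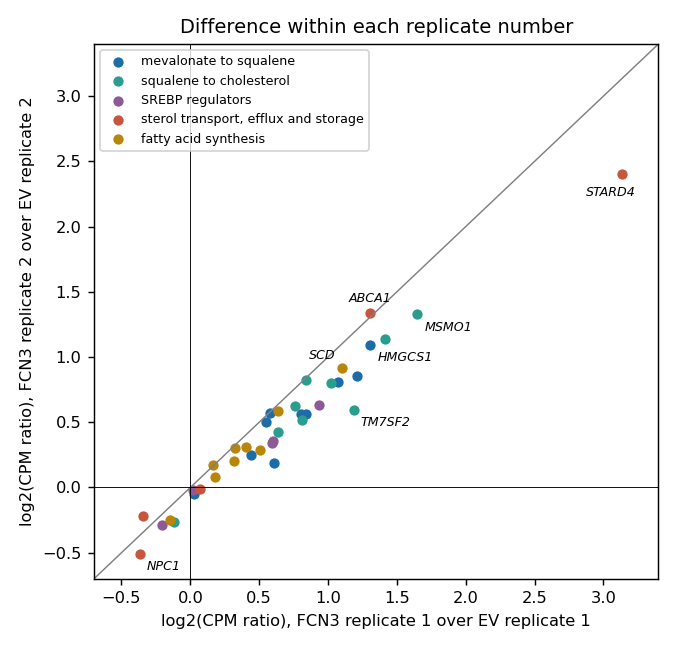
Log2 ratio of TMM-normalized CPM, FCN3 over EV, within replicate 1 (x axis) and within replicate 2 (y axis), with 1 point for each of the 38 tested genes coloured by role and a grey line of equality. Most points lie below the line, with STARD4 at 3.13 and 2.40 farthest out and ABCA1 just above it.

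Other genes of lipid metabolism, 79 by a list of further enzymes, processing factors and carriers, were read from the same fits, and 73 of them passed the filter. Without the block edgeR called 0 higher and 0 lower. At an unadjusted p under 0.05 it had 13 higher and 9 lower, beside 13.6% and 11.6% of all tested genes. DESeq2 without the block called 3 higher and 3 lower, beside 4.43% and 3.43% of the genes it tested. With the block 17 were higher and 14 lower, beside 19.1% and 17.1% of all tested genes, and the median log2 difference was 0.02. Of 15 tested further sterol and isoprenoid enzymes, 5 rose and 4 fell in the block fit. SC5DL (SC5D), which precedes DHCR7 in the pathway, read 17.6 and 22.3 CPM with EV and 30.2 and 31.0 CPM with FCN3, and FNTB, a subunit of the farnesyl transferase that uses the FDPS product, read 27.5 and 38.8 CPM with EV 18.9 and 15.7 CPM with FCN3. DESeq2 called FNTB lower without the block, at an FDR of 0.00086, and not with it, at an FDR of 0.046.

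Of 16 processing factors and partners of SREBP, 1 rose and 2 fell in the block fit, beside 19.1% and 17.1% of all tested genes. The proteases that release SREBP were not called, with MBTPS1 at 134 and 130 CPM in EV and 137 and 132 CPM in FCN3, and MBTPS2 at 75.6 and 66.8 CPM in EV and 82.3 and 68.2 CPM in FCN3. FBXW7, a ubiquitin ligase subunit that acts on nuclear SREBP, rose at a log2 difference of 0.55, and ERLIN1, an ER protein that takes part in the turnover of the sterol machinery, fell at -0.35. NFYA, the NF-Y subunit that contacts CCAAT, fell at -0.28. These 3 calls were made with the block and not without it, and DESeq2 with the block made only that of ERLIN1.

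Of 10 tested sterol trafficking genes 4 rose and 1 fell with the block. Over all tested genes, the shares in that fit were 19.1% higher and 17.1% lower, and they apply to both lists of this paragraph. OSBP, which exchanges sterol for phosphoinositide between the ER and the Golgi, read 88.6 and 81.1 CPM with EV and 153 and 143 CPM with FCN3, and GRAMD1B, which carries plasma membrane cholesterol back to the ER, read 15.0 and 22.3 CPM with EV and 7.96 and 10.3 CPM with FCN3. Of 32 tested genes of fatty acid and glycerolipid synthesis 7 rose and 7 fell with the block, among them ACSL4, which activates polyunsaturated fatty acids, at a log2 difference of 0.55. DGAT2, which makes triglyceride from the diacylglycerol that LPIN1 supplies, had the largest fall of all other lipid genes, from 7.63 and 7.23 CPM with EV to 1.59 and 2.56 CPM with FCN3, a log2 difference of -1.91 ± 0.26 with an edgeR FDR of 0.020 without and 4.9e-13 with the block. Its FCN3 libraries lay far below both EV libraries.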

How the data were processed

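RNA of A549 cells was sequenced in 4 libraries, 2 for EV and 2 for FCN3, grouped by the sample labels. The authors made stranded poly(A) libraries, trimmed the paired reads, aligned them to hg19 with STAR 2.6.1d and estimated abundance with RSEM on RefSeq transcripts. The authors deposited, per gene, the expected count (estimated, not normalized), TPM and FPKM with the gene and effective length. FPKM was not used. Neither the annotation release nor how strand was handled in counting is given in the sources used here. RSEM divides reads that fit several genes, so near copies are uncertain.

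The rounded expected counts were tested in R 4.3.3 with edgeR 4.0.16 (TMM, filterByExpr, glmQLFit and glmQLFTest without the legacy method, FDR threshold 0.01) on 14099 of 25192 genes. SE is the absolute log2 fold change over the square root of F. CPM are TMM-normalized, and detection floors cover counting error only. The labels give both groups replicate numbers 1 and 2 without saying what a number shares, and libraries of 1 number deviated together, so the block fit is printed beside results. Alternatives were the replicate block, DESeq2 1.42.0 with and without the block, RLE factors, FCN3 left out, no filter (at least 1 count), at least 10 counts in every library, an effective length offset, limma 3.58.1 on log2(TPM + 1) and log2(TPM + 0.1), an FDR of 0.05 and each library left out. Of these fits, only edgeR with and without the block was also run on simulated counts, which had the same dispersion for every gene.

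The members and the lists of other lipid genes and markers were chosen with earlier results of these data known. Genes named with library values were the members called without the block, the 3 largest block-fit changes of each role without overlap, the SREBP regulators, members that failed the filter, the 5 highest by TPM, and the largest rise and fall of each other list. PMVK, EBP, MYLIP, EPCAM, CDH1, KRT19, LAMP3, NFYA, MBTPS1 and MBTPS2 were added after their values were seen. Gene positions are from GENCODE v44lift37 on GRCh37.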

Additional observations from a re-analysis of the deposited data

How the results depend on the processing

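The counts of calls depended most on the replicate block, which was given by the numbers of the labels. Of all tested genes, 104 were called higher and 32 lower without the block, 2690 and 2413 with it, 590 and 457 in DESeq2, 1107 and 1105 in DESeq2 with the block, and 624 and 390 at an FDR of 0.05. Leaving out 1 library gave 78 to 181 higher and 14 to 86 lower. Of the members, 3 were called higher without the block, 28 with it, 18 in DESeq2, 23 in DESeq2 with the block and 18 at an FDR of 0.05, and 0 were called lower without the block, 3 with it and 2 in DESeq2 with the block. The calls that DESeq2 with the block did not make were ACAT2, MVK, INSIG2, ACACA, ELOVL6 and SCAP. limma on either TPM scale called 2. Without 1 library the members called higher numbered 2 to 9: 9 without EV replicate 2, which added MVD, IDI1, SQLE, NSDHL, HSD17B7 and SCD, 5 without FCN3 replicate 2, which added HSD17B7 and ABCA1, and 2 without FCN3 replicate 1, which lost HMGCS1. HSD17B7 also passed with FCN3 left out and with no filter. Of the other lipid genes, 0 were called without the block, 17 higher and 14 lower with it, 3 and 3 in DESeq2, 11 and 6 in DESeq2 with the block, and 5 and 1 at an FDR of 0.05. Median log2 differences moved in limma on log2(TPM + 1) and log2(TPM + 0.1), where the median of all genes was -0.07 and -0.09: to 0.42 and 0.43 for the members, 0.52 and 0.52 for the mevalonate arm, -0.068 and -0.073 for the transport genes and 0.21 and 0.22 for the fatty acid genes. Without 1 library the medians ran from 0.51 to 0.69 for the mevalonate arm and from 0.61 to 0.83 for the squalene arm, in both cases lowest without EV replicate 1, from 0.28 (without FCN3 replicate 1) to 0.52 for the regulators, from -0.15 to 0.19 for the transport genes and from 0.26 to 0.40 for the fatty acid genes. With the block, 28 of the 38 members gained a call and 10 kept their side of the threshold. RLE factors, the minimum of 10 counts and the length offset changed no member's call. Depth limits ABCG1, which was at 5 to 8 counts.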

Other observations

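The deposited effective lengths, which depend on which transcripts RSEM assigned reads to and on the fragment lengths of a library, were nearly the same in both groups for the members. The difference of group means, FCN3 minus EV, ran from -0.975% of the EV length in LSS, whose FCN3 libraries were both shorter, to 0.257% in FDPS, whose libraries overlapped.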
